A study of Mus musculus with 40 samples.

Results

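The 10 genes described here carry out hepatic triglyceride synthesis and the loading of lipid onto very low density lipoprotein (VLDL): Gpam, Agpat2, Agpat3, Lpin1, Lpin2, Dgat1, Dgat2, Mogat1, Mttp and Tm6sf2. They were chosen by symbol, and all 10 were found among the 21500 genes of the count table. Liver RNA came from 20 male C57BL/6J mice, 10 in each group. BLT1i mice (numbered 71 to 80) received the compound BLT1i at 90 mg/kg for 8 weeks in addition to a diet called CDAA-HFD. CDAA-HFD mice (numbered 31 to 40) stayed on that diet alone. In both groups the diet began at 8 weeks of age and ran for 4 weeks before the groups were split, and the livers were taken at 20 weeks of age. CDAA-HFD is an amino acid defined diet without added choline that holds 0.1% methionine and takes 60% of its calories from fat, so every mouse here was short of choline, and mice on a normal diet were not analysed here. The labels do not expand the name BLT1i. BLT1 generally stands for a receptor of leukotriene B4, and the study asked what its inhibition does in a model of liver fibrosis. An unexplained code, L_286, stands in the titles of the BLT1i samples.

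Triglyceride is built on glycerol 3-phosphate by acyltransferases of the GPAT and AGPAT families, which make phosphatidate. Lipins then remove its phosphate to give diacylglycerol, and DGAT enzymes add the last acyl chain. In hepatocytes part of the triglyceride is moved by the microsomal transfer protein (Mttp) onto apolipoprotein B and leaves the cell as VLDL, whose surface needs phosphatidylcholine. A lack of dietary choline is known to limit phosphatidylcholine supply and VLDL export in rodent liver, and lipid then accumulates there.

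Total counts per mouse were 18467060 to 26078285 in BLT1i mice and 20994073 to 27456678 in CDAA-HFD mice. The labelled tissue was checked against 6 hepatocyte markers, Alb, Ttr, Cps1, Apoa2, Serpina1c and Hnf4a. Their summed level was 43231 to 52956 CPM (counts scaled to library size by TMM) in BLT1i mice and 43221 to 51902 CPM in CDAA-HFD mice, and 1 of the 6, Serpina1c, was lower with BLT1i. Markers of macrophages, stellate cells and bile duct cells did not pass in either direction. Of 4 endothelial markers 2 were higher with BLT1i, Clec4g and Kdr, and their summed level was 332 to 388 CPM in BLT1i mice and 288 to 353 CPM in CDAA-HFD mice. Of 4 enterocyte markers 3 were tested and Fabp2 was higher, while Sis had no count in any mouse. Their summed level was 583 to 1333 CPM in BLT1i mice and 403 to 930 CPM in CDAA-HFD mice. Most of it was Apoa4, with means of 843 and 631 CPM in the same order, which did not pass. The summed level of 5 adipocyte markers was 0.158 to 2.31 CPM in BLT1i mice and 0.0723 to 2.02 CPM in CDAA-HFD mice. Of 10 immediate early genes, which respond within minutes to stress and handling, 8 were higher with BLT1i. Their summed level was 1253 to 2128 CPM in BLT1i mice and 619 to 1219 CPM in CDAA-HFD mice, without overlap. Mice were numbered in 1 block per group, so an effect of handling order and the treatment cannot be told apart. In whole liver, fewer cells of a type and less RNA per cell cannot be told apart either.

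Of the 10 genes, Lpin2 and Agpat3 were higher in livers of BLT1i mice, none was lower, and 8 did not pass the test (edgeR quasi-likelihood test across all genes, Benjamini-Hochberg adjusted p of at most 0.05). At an unadjusted p of at most 0.05, 6 were higher and 1 lower, and DESeq2 and limma-voom also called none lower. The share of all genes at that unadjusted p is not given here, so those counts cannot be set against all genes. Across the 13993 genes tested, 511 were called higher at the adjusted p, which is 3.65%, and 277 lower, which is 1.98%. The split was 443 higher and 401 lower with upper-quartile scaling, and 391 and 540 with library totals alone. A count of 2 among 10 genes is too small to set the group apart from that background. The log2 fold change of BLT1i over CDAA-HFD was above 0 for 9 of the 10 genes, among them Dgat2, whose value turned to -0.012 with library totals alone, and for 6430 of all genes tested. The median was 0.12 over the 10 genes and -0.01 over all genes tested. All 10 genes passed the filter on low counts.

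**Figure D1:**
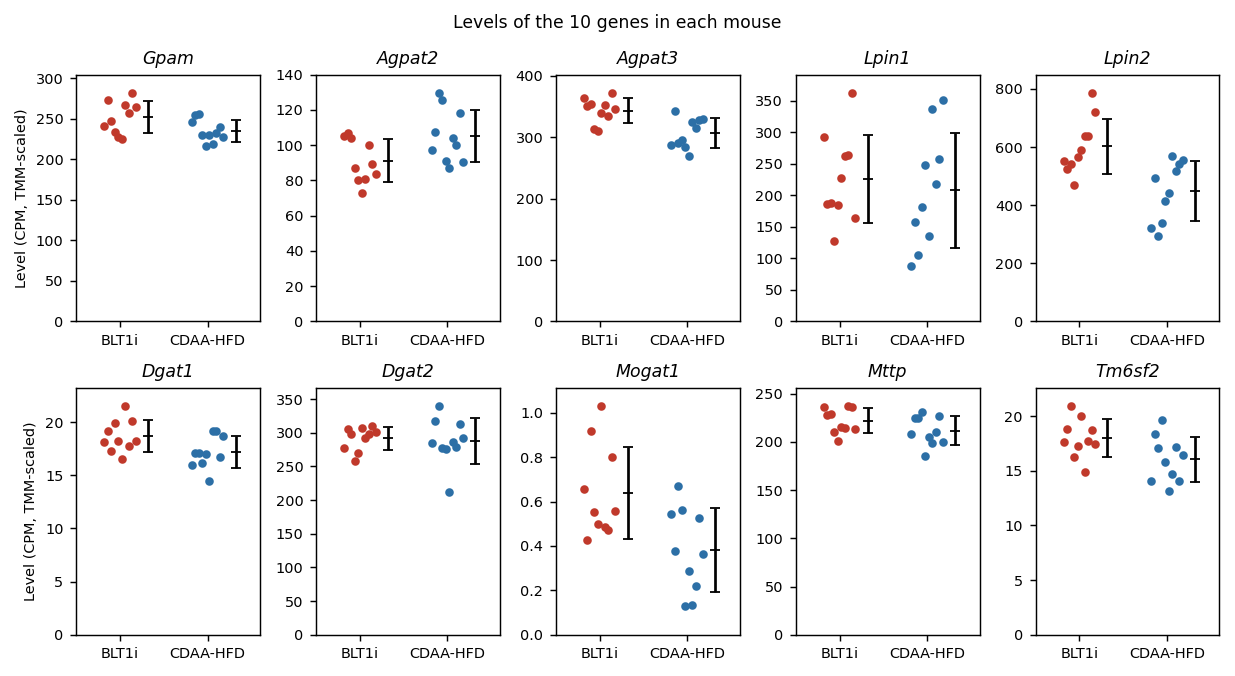
Level of each of the 10 genes (CPM, TMM-scaled, axis from 0) in each mouse, 10 BLT1i mice in red on the left and 10 CDAA-HFD mice in blue on the right of each panel; the black bar is the mean ± SD. All 10 BLT1i mice lie above the CDAA-HFD median for Agpat3, Lpin2 and Mogat1, while the groups overlap in every panel.

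The first step is catalysed in mitochondria by Gpam (GPAT1, ENSMUSG00000024978), which acylates glycerol 3-phosphate. Gpam had 225, 252 and 282 CPM in BLT1i mice (lowest, median and highest) and 216, 231 and 256 CPM in CDAA-HFD mice. In 5 BLT1i mice Gpam exceeded its level in all CDAA-HFD mice, but the test did not pass, with a log2 fold change of 0.10 ± 0.04 (SE, adjusted p = 0.208).

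The AGPAT enzymes acylate lysophosphatidate to phosphatidate. Agpat3 (ENSMUSG00000001211) had 310, 348 and 372 CPM in BLT1i mice and 270, 305 and 342 CPM in CDAA-HFD mice. All 10 BLT1i mice lay above the CDAA-HFD median and 6 of them exceeded all CDAA-HFD mice. Agpat3 rose 1.12-fold, with means of 343 ± 20.1 CPM in BLT1i mice and 307 ± 24.2 CPM in CDAA-HFD mice (SD, n = 10 each; log2 fold change 0.16 ± 0.05, SE; 95% confidence interval 0.07 to 0.26; edgeR adjusted p = 0.0339). The call did not survive leaving out a single mouse for 11 of the mice (31, 33, 34, 35, 71, 72, 73, 76, 77, 79 and 80; highest adjusted p 0.0704), nor scaling with library totals alone (0.13, adjusted p = 0.0502). Agpat2 (ENSMUSG00000026922), the isoform whose loss causes lipodystrophy in mice and humans, was the 1 gene with a log2 fold change below 0. Agpat2 had 72.6, 88.2 and 107 CPM in BLT1i mice and 87.0, 102 and 130 CPM in CDAA-HFD mice. The Agpat2 ranges overlapped widely, although 4 BLT1i mice were below all CDAA-HFD mice, and the test did not pass (-0.21 ± 0.08, adjusted p = 0.152).

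Lipins are cytosolic phosphatidate phosphatases that move to the endoplasmic reticulum to make diacylglycerol, and lipin 1 also acts in the nucleus as a transcriptional coactivator. Lpin2 (ENSMUSG00000024052) had 470, 579 and 786 CPM in BLT1i mice and 293, 467 and 568 CPM in CDAA-HFD mice. All 10 BLT1i mice lay above the CDAA-HFD median and 5 of them exceeded all CDAA-HFD mice, while 5 CDAA-HFD mice were below all BLT1i mice. Lpin2 rose 1.34-fold, with means of 602 ± 95.1 CPM in BLT1i mice and 448 ± 103 CPM in CDAA-HFD mice (SD, n = 10 each; log2 fold change 0.43 ± 0.12, SE; 95% confidence interval 0.17 to 0.68; edgeR adjusted p = 0.0446). The call stood close to the threshold. It ended on leaving out a single mouse for 12 of the mice (31, 33, 34, 35, 36, 71, 73, 76, 77, 78, 79 and 80; highest adjusted p 0.0880) and with genes of few counts kept in the test (adjusted p = 0.0608), with 1 surrogate variable (0.0622) and with the hepatocyte marker score as a covariate (0.0571).

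Lpin1 (ENSMUSG00000020593) had 127, 208 and 363 CPM in BLT1i mice and 88.5, 199 and 351 CPM in CDAA-HFD mice. Lpin1 thus spanned nearly the same wide range in both groups, and 5 of 10 BLT1i mice lay above the CDAA-HFD median. Its log2 fold change was 0.12 ± 0.25, and the 95% confidence interval of -0.40 to 0.64 leaves room for a change as large as that of Lpin2 (adjusted p = 0.846). The coefficient of variation of Lpin1 across mice was 30.96% in BLT1i mice and 43.8% in CDAA-HFD mice, against a median of 8.50% and 9.35% over the 13325 tested genes with at least 1 CPM. Of those genes 0.923% varied more. Lpin2 varied by 15.8% in BLT1i mice and 22.9% in CDAA-HFD mice, whereas Mttp varied by 5.78% and 7.10% in the same order.

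The stretches upstream of the transcription start are shown for the 2 genes that rose, Agpat3 and Lpin2, and for Lpin1, the isoform related to Lpin2. They are the 250 bases before the annotated start, 5′ to 3′ on the gene's strand, from RefSeq on build GRCm38.p6. Lower case marks bases without a match and capitals mark a match to a searched motif. Lpin2 has 3 annotated starts, of which the first and the last are shown. The positions are chr10:78351701-78351950 on the minus strand for Agpat3, chr17:71183282-71183531 and chr17:71204404-71204653 on the plus strand for Lpin2, and chr12:16610967-16611216 on the minus strand for Lpin1.
Agpat3: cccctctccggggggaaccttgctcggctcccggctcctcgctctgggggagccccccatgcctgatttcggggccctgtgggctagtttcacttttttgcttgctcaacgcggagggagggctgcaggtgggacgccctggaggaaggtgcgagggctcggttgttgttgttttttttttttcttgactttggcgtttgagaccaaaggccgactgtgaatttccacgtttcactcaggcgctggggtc
Lpin2 first start: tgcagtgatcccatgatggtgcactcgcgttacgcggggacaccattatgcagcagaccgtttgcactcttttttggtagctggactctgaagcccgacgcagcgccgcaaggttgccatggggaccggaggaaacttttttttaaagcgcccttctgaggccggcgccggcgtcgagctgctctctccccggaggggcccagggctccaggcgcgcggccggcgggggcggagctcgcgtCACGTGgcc
Lpin2 last start: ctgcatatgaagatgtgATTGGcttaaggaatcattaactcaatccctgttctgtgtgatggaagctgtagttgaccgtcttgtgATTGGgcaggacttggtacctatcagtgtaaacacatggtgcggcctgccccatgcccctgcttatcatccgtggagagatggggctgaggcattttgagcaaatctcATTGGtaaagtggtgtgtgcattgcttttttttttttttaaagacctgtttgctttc
Lpin1: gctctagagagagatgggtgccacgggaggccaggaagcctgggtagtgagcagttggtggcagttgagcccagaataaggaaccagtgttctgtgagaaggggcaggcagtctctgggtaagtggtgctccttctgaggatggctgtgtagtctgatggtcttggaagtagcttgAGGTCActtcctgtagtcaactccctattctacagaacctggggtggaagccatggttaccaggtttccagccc
The first Lpin2 stretch holds the E-box CACGTG at bases -9 to -4 counted from the start, a motif found in 7.15% of all 32851 promoter windows of the table. The last Lpin2 stretch holds CCAAT 3 times on the opposite strand, written there as ATTGG, and 37.4% of all windows hold CCAAT. Lpin1 holds the nuclear receptor motif AGGTCA at bases -74 to -69, which 16.3% of all windows hold. The Agpat3 stretch has no match to any motif searched, and neither has that of the middle Lpin2 start, which is not shown.

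RefSeq promoter windows, which run from 250 bases before to 50 bases after the start, were matched for 7 of the 10 genes: Gpam, Agpat2, Agpat3, Lpin1, Lpin2, Mogat1 and Mttp. Both strands of each window were searched for AGGTCA, for DR1 (a direct repeat of AGGTCA with 1 base between), for CACGTG, for the sterol element TCACNCCAC, for TATAAA and for CCAAT. DR1 contains AGGTCA, and no other matches overlapped. AGGTCA was also found in 1 of 2 windows of Gpam, and CCAAT in the other Gpam window and in Mogat1. The windows of Agpat2 and Mttp and the middle window of Lpin2 held no match. DR1, TCACNCCAC and TATAAA were found in none of the windows of these 7 genes, and in 0.0396%, 1.24% and 13.6% of all windows in the same order. A match of this kind is a run of letters and does not show that a factor binds there.

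The last acyl chain is added by Dgat1 and Dgat2, a pair of unrelated endoplasmic reticulum enzymes, of which Dgat2 mainly handles newly made fatty acids. Dgat2 (ENSMUSG00000030747) had 258, 298 and 310 CPM in BLT1i mice and 213, 286 and 339 CPM in CDAA-HFD mice. The BLT1i range of Dgat2 lay inside the CDAA-HFD range. Its log2 fold change was 0.02 ± 0.06, with a 95% confidence interval of -0.10 to 0.14 (adjusted p = 0.908). Dgat1 (ENSMUSG00000022555) had 16.6, 18.2 and 21.5 CPM in BLT1i mice and 14.4, 17.1 and 19.2 CPM in CDAA-HFD mice. In 9 of 10 BLT1i mice Dgat1 lay above the CDAA-HFD median, without passing the test (0.12 ± 0.05, adjusted p = 0.206).

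Mogat1 (ENSMUSG00000012187), a monoacylglycerol acyltransferase that is induced in fatty liver of mice, had few counts. Between 9 and 25 counts were found per BLT1i mouse and between 3 and 15 per CDAA-HFD mouse. Mogat1 had 0.425, 0.556 and 1.03 CPM in BLT1i mice and 0.132, 0.369 and 0.671 CPM in CDAA-HFD mice. All 10 BLT1i mice lay above the CDAA-HFD median and 3 of them exceeded all CDAA-HFD mice. The log2 fold change of Mogat1, 0.74 ± 0.25, was the largest of the 10 genes and did not pass (edgeR adjusted p = 0.0904), while limma-voom with a weight per mouse called it higher (0.84, adjusted p = 0.0478). With so few counts the 95% confidence interval of Mogat1 ran from 0.21 to 1.26.

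Mttp (ENSMUSG00000028158), the transfer protein that lipidates apolipoprotein B, had 201, 221 and 237 CPM in BLT1i mice and 185, 209 and 231 CPM in CDAA-HFD mice. The 2 ranges of Mttp overlapped over most of their width, and the log2 fold change was 0.07 ± 0.04, with a 95% confidence interval of -0.02 to 0.16 (adjusted p = 0.395). Tm6sf2 (ENSMUSG00000036151), a membrane protein needed for full lipid loading of VLDL, had 14.9, 17.7 and 20.9 CPM in BLT1i mice and 13.2, 16.1 and 19.6 CPM in CDAA-HFD mice. In 9 of 10 BLT1i mice Tm6sf2 lay above the CDAA-HFD median, but the test did not pass (0.16 ± 0.07, adjusted p = 0.180).

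Levels between genes were compared on FPKM, which is scaled to gene length and which the authors rounded to whole numbers. Lpin2 was the highest of the 10, with a median of 151 FPKM in BLT1i mice and 119.5 FPKM in CDAA-HFD mice. Next came Dgat2 with 117 and 116.5 FPKM and Agpat3 with 104.5 and 94 FPKM, in the same order of groups. In BLT1i mice the Lpin2 range (132 to 196 FPKM) lay above that of Dgat2 (105 to 119 FPKM), whereas in CDAA-HFD mice the 2 ranges overlapped. Dgat2 and Agpat3 overlapped in both groups. Agpat2, Mttp, Gpam and Lpin1 formed a middle tier with medians of 38.5 to 52.5 FPKM in BLT1i mice and 39.5 to 61 FPKM in CDAA-HFD mice. Neighbours within this tier overlapped, except Agpat2 and Mttp in CDAA-HFD mice. Tm6sf2 and Dgat1 followed with medians of 11 and 9 FPKM in BLT1i mice and 10 and 9 FPKM in CDAA-HFD mice, and did not differ beyond their spread. Mogat1 was listed at 0 in all 20 mice.

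The other genes of the pathway were taken from 7 lists by role, with 67 genes, of which 65 were matched and 62 were tested. With BLT1i 9 of the 62 were higher and none was lower, against 3.65% higher and 1.98% lower among all genes tested, and their median log2 fold change was 0.03, against -0.01 over all genes. The lists were chosen with earlier results of these data known, so these counts do not measure an excess over all genes. DESeq2 and limma-voom called 12 and 10 of the 62 genes higher and none lower. The count of higher genes was 6 with library totals alone and 7 on FPKM, and at an unadjusted p of at most 0.05 it was 15, with 2 lower. The shares above are for edgeR at the adjusted p. None is given here for the unadjusted p, or for DESeq2, limma-voom or FPKM, so those counts cannot be set against all genes. For the supply of glycerol 3-phosphate, 2 of 4 tested genes rose. Glycerol kinase (Gk) had 136 ± 20.3 CPM in BLT1i mice and 102 ± 10.7 CPM in CDAA-HFD mice (log2 fold change 0.41 ± 0.07, edgeR adjusted p = 0.00113), and 7 BLT1i mice exceeded all CDAA-HFD mice. The glycerol channel Aqp9 rose by 0.14 ± 0.04 (adjusted p = 0.0465), which no longer passed on leaving out a single mouse for 13 of the mice (34, 35, 36, 37, 40, 71, 72, 73, 76, 77, 78, 79 and 80; highest adjusted p 0.0889). With all mice kept, Aqp9 was called in 4 of 14 alternatives, and upper-quartile scaling or library totals alone ended its call (adjusted p = 0.0652 and 0.0893). Of 7 further GPAT and AGPAT genes 1 rose, the endoplasmic reticulum enzyme Gpat4. It had 135 ± 13.97 CPM in BLT1i mice and 118 ± 6.55 CPM in CDAA-HFD mice (0.19 ± 0.05, adjusted p = 0.0239, or 0.0502 without mouse 34). The related Gpat3 gave 0.25 ± 0.13 and did not pass (adjusted p = 0.290).

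No other phosphatidate phosphatase passed in edgeR, DESeq2 or limma-voom. At an unadjusted p of at most 0.05, again without a share of all genes, 1 was higher. Of 7 tested, the plasma membrane enzymes Plpp3 and Plpp2 had the lowest p, at 0.11 ± 0.04 and 0.14 ± 0.07 (adjusted p = 0.173 and 0.260). The intestinal-type Mogat2 and the wax synthase Awat2, with means of 3.45 and 0.865 CPM in BLT1i mice and 2.74 and 1.04 CPM in CDAA-HFD mice, did not pass (log2 fold changes 0.33 ± 0.13 and -0.27 ± 0.12; adjusted p = 0.150 and 0.264).

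Of 19 tested genes of VLDL assembly and export outside the 10, Ces1d, Lpcat3 and Sar1b rose. Ces1d, a lipase of the endoplasmic reticulum that frees stored triglyceride for VLDL, had 97.9 ± 9.47 CPM in BLT1i mice and 74.2 ± 13.2 CPM in CDAA-HFD mice (log2 fold change 0.40 ± 0.08, edgeR adjusted p = 0.00506). Ces genes have near-identical copies, so the value of a single one is uncertain. Lpcat3, which makes polyunsaturated phosphatidylcholine, rose by 0.22 ± 0.05 (adjusted p = 0.00727), and Sar1b, the GTPase of the coat that carries lipoproteins out of the endoplasmic reticulum, by 0.17 ± 0.04 (adjusted p = 0.0146). Apob, the structural protein that Mttp lipidates, gave 0.04 ± 0.05 (adjusted p = 0.754). The other 15 genes of this list also did not pass.

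Among 8 tested genes listed under phosphatidylcholine supply 3 rose, and all 8 had log2 fold changes above 0, with a median of 0.13. Of the 3, Pcyt2 belongs to the ethanolamine branch. Over all 13993 genes tested 3.65% were called higher and 6430 had a value above 0. As this list too was chosen with earlier results of these data known, its counts do not measure an excess over all genes. Cept1, which joins choline or ethanolamine headgroups to diacylglycerol, had 62.6 ± 2.97 CPM in BLT1i mice and 55.3 ± 2.85 CPM in CDAA-HFD mice (log2 fold change 0.18 ± 0.04, adjusted p = 0.00255). On log2 of the rounded FPKM plus 1, Cept1 did not pass (0.11, adjusted p = 0.206). Choline kinase beta (Chkb) rose by 0.18 ± 0.05 (adjusted p = 0.0218, or 0.0624 with library totals alone). Pcyt2, which activates ethanolamine for the parallel branch, rose by 0.16 ± 0.04 (adjusted p = 0.0258) and no longer passed on leaving out mouse 33, 71, 72, 73 or 79 (highest adjusted p 0.0548) or with library totals alone (0.0557). Pemt, which makes phosphatidylcholine by methylation of phosphatidylethanolamine, gave 0.04 (adjusted p = 0.724). Pcyt1a gave 0.03 ± 0.04 (adjusted p = 0.760), and 5 of the 8 genes, these included, did not pass.

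In edgeR 4 of 15 tested regulators were higher and 1 lower at an unadjusted p of at most 0.05. No share of all genes is given for that cutoff, or for the DESeq2 and limma-voom calls that follow. None of the 15 regulators passed after adjustment. DESeq2 called 3 of them higher, Pparg, Ppara and Mgrn1 (adjusted p = 0.0310, 0.0434 and 0.0320), and limma-voom with a weight per mouse called Pparg (adjusted p = 0.0181). In edgeR the receptor gene Pparg gave 0.20 ± 0.06 (adjusted p = 0.0573) and passed without mouse 34 (0.25, adjusted p = 0.00486) or mouse 36 (0.22, adjusted p = 0.0407). Ppara, the receptor gene of fatty acid oxidation, gave 0.24 ± 0.08 (adjusted p = 0.0869) and passed without mouse 72 (0.28, adjusted p = 0.0440). The ubiquitin ligase gene Mgrn1 gave 0.10 ± 0.03 (adjusted p = 0.0821).

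**Figure D2:**
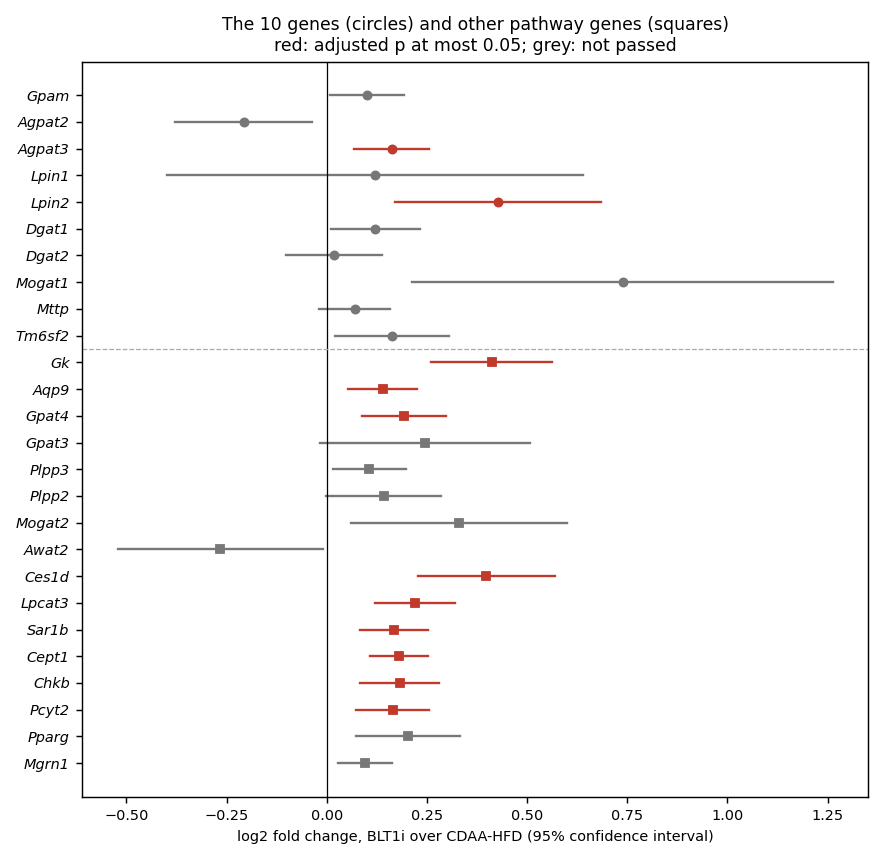
Log2 fold change of BLT1i over CDAA-HFD with its 95% confidence interval for the 10 genes (circles, above the dashed line) and for the named genes of the other pathway lists (squares, below it); red marks an edgeR adjusted p of at most 0.05. Lpin2 and Agpat3 are the red circles at 0.43 and 0.16, and all 9 red squares lie to the right of 0.

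The calls of Lpin2 and Agpat3 were lost in fits that held either of 2 measures that also differed between the groups. With the immediate early score as a covariate, the log2 fold change was 0.08 for Lpin2 and 0.16 for Agpat3 (adjusted p = 0.929 and 0.434). The Agpat3 value was thus close to the 0.16 of the main test, and only its adjusted p moved. That score, the mean log2 CPM of the immediate early genes, was 6.30 to 7.20 in BLT1i mice and 5.25 to 6.45 in CDAA-HFD mice, so the groups overlapped in a small part of its range and that fit separates the score from the treatment poorly. With the endothelial marker score as a covariate, chosen after seeing the data, the values were 0.15 for Lpin2 and 0.03 for Agpat3 (adjusted p = 0.815 and 0.894). All 9 calls of the pathway lists were likewise lost in both fits, in which 75 and 59 of all genes tested were called higher. The hepatocyte marker score moved the values of Lpin2 and Agpat3 to 0.40 and 0.15 (adjusted p = 0.0571 for Lpin2 and 0.0226 for Agpat3). The part of these measures in the results was not tested.

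**Figure D3:**
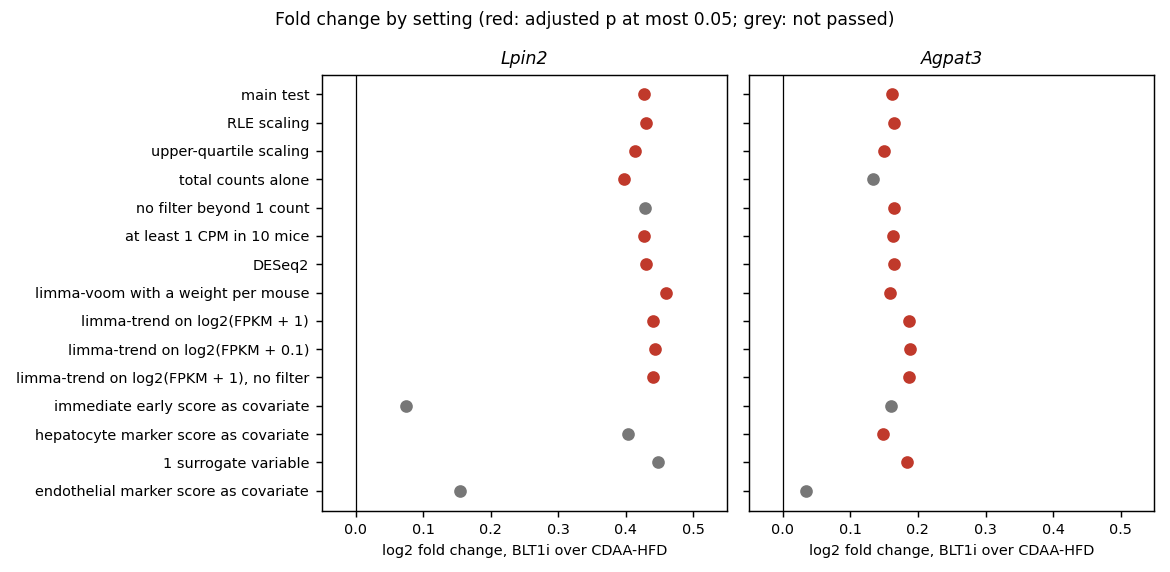
Log2 fold change of BLT1i over CDAA-HFD for Lpin2 (left) and Agpat3 (right) under the main test and each alternative that kept all mice; red marks an adjusted p of at most 0.05 and grey one above it. Lpin2 drops to 0.08 with the immediate early score and 0.15 with the endothelial score, and Agpat3 drops to 0.03 with the endothelial score.

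Whether the genes moved together from mouse to mouse was asked within each group of 10. Over the 45 pairs of the 10 genes, 35 had a Pearson r above 0 in BLT1i mice and 31 in CDAA-HFD mice. The median r was 0.30 in both groups, while the median over all pairs of 13309 genes was -0.002 in BLT1i mice and -0.001 in CDAA-HFD mice. Without regard to sign, the median r was 0.36 in BLT1i mice and 0.41 in CDAA-HFD mice, against 0.28 and 0.285 over all pairs. An r of at least 0.8 in size was reached by 0 and 2 of the 45 pairs, and by 1.45% and 1.57% of all pairs. No single pair passed in either group after adjustment over 230 correlations (permutation test over mice, two-sided), while 7 pairs in BLT1i mice and 10 in CDAA-HFD mice had an unadjusted p of at most 0.05. The share of all gene pairs at that unadjusted p is not given here. Agpat2 and Mttp, the pair with the single highest value, had an r of 0.73 in BLT1i mice (rho 0.65, permutation p = 0.0207, adjusted p = 0.230) and 0.81 in CDAA-HFD mice (rho 0.73, permutation p = 0.00554, adjusted p = 0.192). Without the 2 mice farthest from the Agpat2 median, r was 0.81 in BLT1i mice and 0.73 in CDAA-HFD mice. The r of Agpat2 and Mttp was thus high in both groups with and without those mice, short of the threshold.

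Lpin1 and Lpin2 had an r of 0.61 in BLT1i mice (rho 0.47, permutation p = 0.0624, adjusted p = 0.312) and 0.81 in CDAA-HFD mice (rho 0.84, permutation p = 0.00584, adjusted p = 0.192). Without the 2 mice farthest from the Lpin1 median r was -0.06 in BLT1i mice, so there it rested on those mice, and 0.57 in CDAA-HFD mice. Some other pairs had r of opposite sign in the groups. Gpam and Lpin1 had an r of 0.39 in BLT1i mice and -0.70 in CDAA-HFD mice (adjusted p = 0.557 and 0.230 by permutation). Without the 2 mice farthest from the Gpam median these were 0.25 and -0.64. Dgat1 and Tm6sf2 had an r of -0.73 in BLT1i mice and 0.33 in CDAA-HFD mice (adjusted p = 0.230 and 0.635 by permutation), and -0.72 and -0.14 without the 2 mice farthest from the Dgat1 median. These differences between groups were not tested.

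Each of the 10 genes was also set against 7 partner genes: Apob, Pparg, the lipid droplet gene Cidec, the lipogenic genes Srebf1 and Fasn, the omega-hydroxylase gene Cyp4a14, and Egr1. Of the 70 pairs, each tested in both groups, 1 passed in 1 group. Gpam and Apob had an r of 0.88 in BLT1i mice (rho 0.94, permutation p = 0.00014, adjusted p = 0.0322, n = 10), and 0.85 without the 2 mice farthest from the Gpam median. By Spearman's rho the adjusted p was 0.0621. No pair passed under library totals alone, or when each pair was tested without the 2 mice farthest from the median. In CDAA-HFD mice Gpam and Apob had an r of 0.43 (rho 0.45, permutation p = 0.218, adjusted p = 0.517). The r of Lpin2 with the lipogenic genes was below 0 in both groups, without passing. Its r with Srebf1 was -0.65 in BLT1i mice and -0.78 in CDAA-HFD mice, and with Fasn -0.69 and -0.74 in the same order (permutation, adjusted p = 0.267, 0.192, 0.230 and 0.230). Without the 2 mice farthest from the Lpin2 median these values were -0.43 and -0.59 for Srebf1 and -0.60 and -0.51 for Fasn. Agpat2 had an r with Fasn of 0.71 in BLT1i mice and 0.75 in CDAA-HFD mice, which did not pass either (permutation, adjusted p = 0.230 in each). Without the 2 mice farthest from the Agpat2 median it was 0.66 in BLT1i mice and 0.37 in CDAA-HFD mice, so the CDAA-HFD value rested on those mice.

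**Figure D4:**
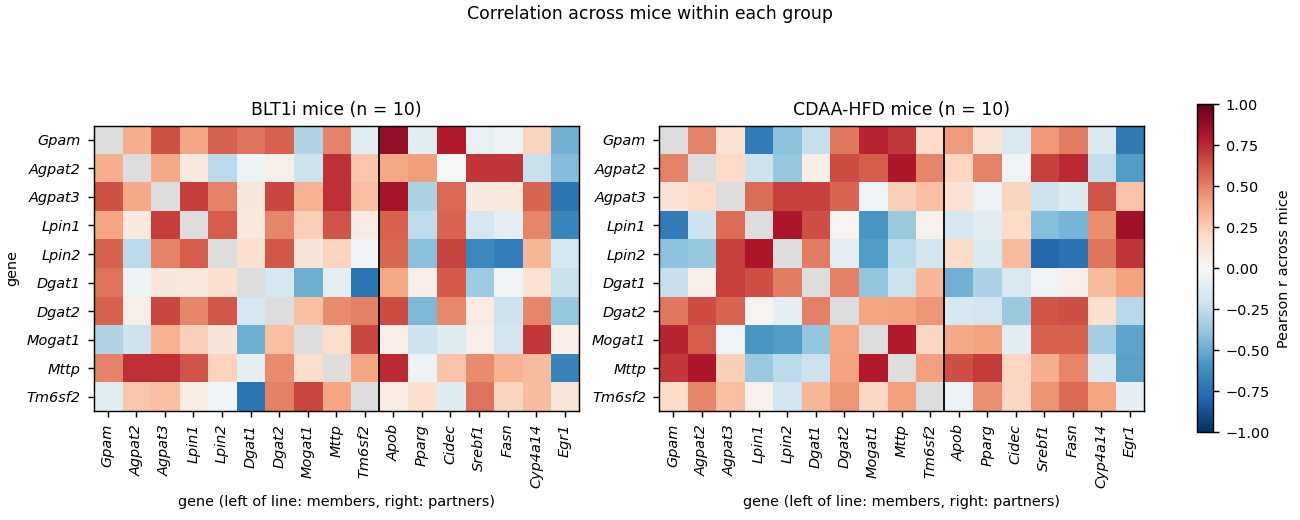
Pearson r across mice (colour, from -1 in blue to 1 in red) for each of the 10 genes (down the side) with each other and, right of the black line, with 7 partner genes; BLT1i mice on the left and CDAA-HFD mice on the right, n = 10 each. The darkest cell of the BLT1i panel is Gpam with Apob at 0.88, and the row of Lpin2 is blue for Srebf1 and Fasn in both panels, although none of those pairs passed.

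For each of the 10 genes the 3 genes with the most similar pattern were found by Pearson r over all 20 mice after each group's mean was removed, among 13309 genes with at least 1 CPM. These values are the top of a long ranking and carry no test. Lpin2 was most like Pck1, the gluconeogenic enzyme PEPCK, with an r of 0.95, then the amino acid transporter gene Slc7a2 at 0.91 and Angptl4, an inhibitor of lipoprotein lipase, at 0.90. Pck1 had 1918 ± 350 CPM in BLT1i mice and 1255 ± 410 CPM in CDAA-HFD mice and was called higher, as was Slc7a2 (log2 fold changes 0.61 and 0.50, edgeR adjusted p = 0.0441 and 0.0275). Angptl4 had 113 ± 19.6 CPM in BLT1i mice and 114 ± 33.6 CPM in CDAA-HFD mice (adjusted p = 0.995). Lpin1 was most like Slc38a2, another amino acid transporter gene, at 0.91, then Tle1 and Zbtb16 at 0.88 and 0.87. Within BLT1i mice the r of Lpin1 was 0.74 with Slc38a2, 0.93 with Tle1 and 0.81 with Zbtb16, and without the 2 mice farthest from the Lpin1 median 0.15, 0.87 and 0.42. Within CDAA-HFD mice r was 0.97 with Slc38a2 and 0.97 without 2 mice, so the value of that pair over all mice rested mainly on the CDAA-HFD mice.

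Agpat2 was most like Surf4, the cargo receptor that exports lipoproteins from the endoplasmic reticulum, at 0.93, then Babam1 and the phosphatidylinositol synthase gene Cdipt at 0.91 and 0.90. Agpat3 was most like the protease gene Furin at 0.93, then Ndufs1 and Wbp1l at 0.88 each, of which Ndufs1, a subunit of respiratory complex I, was called higher (0.19, edgeR adjusted p = 0.00271). Dgat2 was most like Slc25a11 at 0.95, then Fkbp8 and Ftl1 at 0.93 and 0.91. Within BLT1i mice the r of Dgat2 with Ftl1 was 0.71, or 0.24 without the 2 mice farthest from the Dgat2 median. The nearest genes of Mttp, Ehd1, Prkar2a and Ndufa10, had r of 0.86 each. For the other 4 genes the top values were lower. Gpam reached 0.80 with Chpt1, which makes phosphatidylcholine from diacylglycerol, followed by Lmbrd2 and Adi1. Dgat1 reached 0.77 with Relt, followed by Pdcd7 and Sap25, Mogat1 0.76 with the thyroid hormone receptor gene Thrb, followed by Adamts4 and Bco2, and Tm6sf2 0.71 with Mrps34, followed by Coq4 and Tek. Of these 30 genes 3 were called higher with BLT1i, Pck1, Slc7a2 and Ndufs1, and none lower. Over all genes tested 3.65% were called higher and 1.98% lower. The 3 are neighbours of Lpin2 and Agpat3, which were themselves called higher.

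**Figure D5:**
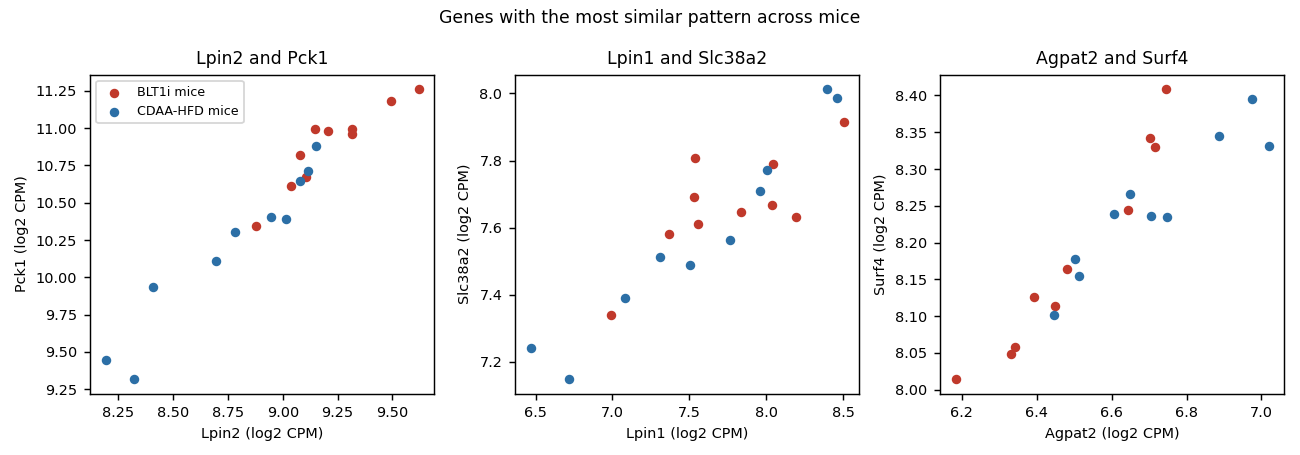
Level in each mouse (log2 CPM on both axes) of Lpin2 and Pck1, Lpin1 and Slc38a2, and Agpat2 and Surf4, with BLT1i mice in red and CDAA-HFD mice in blue. The points of Lpin2 and Pck1 lie along 1 line in both groups, with BLT1i mice toward its upper end, and the r with group means removed is 0.95, 0.91 and 0.93 from left to right.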

How the data were processed

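Liver RNA of 20 mice was sequenced. The labels list 40 samples, 2 lanes per mouse, whereas the tables hold 1 column for each animal, which was taken as the replicate (n = 10 per group). Per the labels' protocols, libraries came from a stranded total RNA kit with ribosomal RNA removal, while the molecule is labelled polyA RNA. The genome build was GRCm39, per the submitters' processing notes. The aligner, the counting program, its strand setting and the merging of lanes were not given in the sources used here, and reads of overlapping genes may not have been separated.

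Raw counts of protein-coding genes, as the authors deposited them, were used for all tests. The authors also deposited FPKM rounded to whole numbers, which were treated as a score. Of the rounded values 43.3% were 0. Names were matched for 21457 of 21500 identifiers. Promoter sequences came from RefSeq on GRCm38.p6, an older build, and no coordinates were converted.

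After filterByExpr and TMM scaling, genes were tested in R 4.3.3 by the two-sided robust quasi-likelihood F-test of edgeR 4.0.16, with Benjamini-Hochberg adjustment over all 13993 genes tested. The SE is the log2 fold change divided by the square root of F. Correlations used log2 CPM with a prior count of 2 and 100000 resamples, and adjusted p covers 115 pairs in each of 2 groups. The test was checked on simulated counts. The 90 pairs of mice within groups all differed beyond sampling noise, with a chi-square of 6.34 to 32.1 for each degree of freedom.

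The 10 genes, the lists and the partners were chosen with earlier results of these data known. The text names the 10 genes, every list gene that passed and otherwise the 2 of a list with the lowest p, the 7 partners and the 3 most similar genes of each of the 10. Pemt, Pcyt1a, Ppara and Pltp were added after their values were seen. Symbols without a proper name were passed over, 1 of them for Lpin1 and 1 for Dgat1. As alternatives, scaling was changed to RLE, upper-quartile or library totals alone, and further fits used other filters, DESeq2 1.42.0, limma 3.58.1 on counts and on log2 of FPKM plus 1 or 0.1, marker scores as covariates, 1 surrogate variable (sva 3.50.0), other thresholds and each mouse left out.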

Additional observations from a re-analysis of the deposited data

Results flagged for a closer look

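Dgat2 had 1 value far from the rest of its group. CDAA-HFD mouse 36 had 213 CPM, the lowest of the 10 CDAA-HFD mice, and its gap to the nearest mouse was 0.497 of the group's range, above Dixon's critical value at 95% for 10 samples. Without mouse 36 the log2 fold change of Dgat2 was -0.023, against 0.02 with it, and neither passed. Among the 20 sets of values examined, 10 genes in 2 groups, this was the 1 that stood apart, which is about what chance gives at 1 in 20.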

How the results depend on the processing

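No paired analysis was possible because the mouse numbers of the groups do not overlap and the labels give no litter, cage or batch. The 2 genes called higher among the 10 became 1 with library totals alone, with no filter on low counts, with the hepatocyte score and with 1 surrogate variable (Lpin2 lost its call in the last 3 and Agpat3 in the first), and 0 with the immediate early score, with the endothelial score and at a threshold of 0.01. They ranged from 0 to 2 when each mouse was left out. None of the 10 was called lower in any of these. The 9 pathway genes called higher became 0 with the immediate early or the endothelial score and 4 at a threshold of 0.01, and ranged from 7 to 9 without single mice. With library totals alone, 1 was lower, and with the hepatocyte score 1, in both cases the phospholipid transfer gene Pltp (-0.25 and -0.23; adjusted p = 0.0362 and 0.0330).

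Over all genes tested, the 511 called higher became 75 with the immediate early score, 59 with the endothelial score and 232 at a threshold of 0.01. The 277 called lower became 540 with library totals alone, 421 with DESeq2, 184, 181 and 184 on FPKM (plus 1, plus 0.1, and plus 1 without a filter), 17 with the immediate early score, 13 with the endothelial score, 540 at a threshold of 0.1 and 48 at 0.01. Without single mice 397 to 559 were higher and 168 to 342 lower. Upper-quartile scaling gave 443 higher and 401 lower, and library totals alone 391 and 540.

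Fold changes that turned sign were those of genes without a call. Agpat2 gave 0.058, Lpin1 -0.51 and Fasn 0.14 with the immediate early score. Lpin1 gave -0.13, Dgat2 -0.013, Gpat3 -0.10 and Apob -0.086 with the endothelial score. Dgat2 also gave -0.012 with library totals alone, -0.00019 with the hepatocyte score and -0.023 without CDAA-HFD mouse 36, with a highest value of 0.048 when other mice were left out. The pair of Gpam and Apob was the 1 called, and 0 pairs were called with library totals alone or without the 2 mice farthest from the median. The cause was not tested in any of these cases. DESeq2 gave no adjusted p for Mogat1. An order of levels from CPM over transcript length was not run. Counts of 3 to 25 per mouse limit what can be said of Mogat1.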

Other observations

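The balance between isoforms of a step was compared after the values were seen, so it is a description without a test. The log2 ratio of Agpat3 to Agpat2 was 1.92 ± 0.18 in BLT1i mice and 1.55 ± 0.21 in CDAA-HFD mice (SD, n = 10 each), a difference of 0.37 ± 0.09 (SE). All 10 BLT1i mice lay above the CDAA-HFD median of this ratio and 5 lay above every CDAA-HFD mouse. Both genes contribute, since Agpat3 was higher and Agpat2 had a log2 fold change below 0 without passing. The log2 ratio of Lpin2 to Lpin1 was 1.46 ± 0.36 in BLT1i mice and 1.20 ± 0.44 in CDAA-HFD mice, and that of Dgat2 to Dgat1 3.96 ± 0.16 in BLT1i mice and 4.06 ± 0.16 in CDAA-HFD mice. Their differences were 0.25 ± 0.18 and -0.098 ± 0.07 (SE), each only somewhat larger than its SE. The ratios carry no gene length, so they can be compared between groups but do not show which isoform is more abundant. With a prior count of 0.5, with library totals alone and without each mouse in turn, all 3 differences kept their sign.

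Among the partner genes, Cidec, which encodes a lipid droplet fusion protein, had 51.4 ± 7.65 CPM in BLT1i mice and 31.6 ± 8.07 CPM in CDAA-HFD mice (edgeR, log2 fold change 0.70 ± 0.13, adjusted p = 0.00195). Srebf1, the regulator of fatty acid synthesis, had 110 ± 12.6 CPM in BLT1i mice and 132 ± 28.1 CPM in CDAA-HFD mice, and its target Fasn 491 ± 90.7 and 571 ± 150 CPM in the same order of groups. Neither passed (-0.25 ± 0.10 and -0.22 ± 0.13; adjusted p = 0.152 and 0.399). Cyp4a14 and Egr1 were higher, by 2.34 ± 0.23 and 1.49 ± 0.19 (adjusted p = 2.84e-06 and 5.82e-05).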
